A study of Homo sapiens with 15 samples.

Results

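The desmosome genes are 10 genes that encode parts of the desmosome, and they were taken by symbol from a gene expression table of 33158 genes: DSP, DSC2, DSC3, DSG2, DSG3, PKP1, PKP2, PKP3, JUP and PERP. Each symbol matched 1 row, so 10 of 10 members were found, and their expression values are described here in 5 groups of triple negative breast cancer cells.

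Desmosomes are spot-like junctions that hold neighbouring epithelial cells together and anchor their keratin filaments. Desmosomal cadherins (desmogleins and desmocollins) reach across the gap between cells. On the inner side plakoglobin and plakophilins bind the cadherin tails, and desmoplakin joins this plaque to keratin. In the breast, desmosomes link the luminal and the basal (myoepithelial) cells, and their loss is a known feature of cells that take on mesenchymal traits.

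The study compared breast cancer stem cells (CSC) with the remaining tumor cells (non-CSC) by sequencing polyadenylated RNA. The established human lines SUM149 and HCC1937 were sorted by surface CD44 and CD24 into a CSC fraction, CD44+/CD24-/low, and a non-CSC fraction. A further established line, SUM159, entered unsorted, and its labels call all its cells cancer stem cells. Each of the 5 groups (SUM149 CSC, SUM149 non-CSC, HCC1937 CSC, HCC1937 non-CSC and SUM159) had 3 libraries, no group had a drug treatment or genetic change named in its labels, and all were labelled triple negative. Values are FPKM (sequenced fragments divided by transcript length and by the number of mapped fragments), a scale per length on which levels of different genes may be compared. The values are means ± SD over n = 3 libraries wherever an SD is given.

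Total counts per library were not given, so the depth behind a value is unknown. The FPKM of all genes summed to between 291276 and 366532 in the 12 sorted libraries, and to between 634746 and 652082 in SUM159. Between 11249 and 11997 genes exceeded 1 FPKM in a sorted library, against 8534 to 8670 in SUM159. SUM159 libraries thus held fewer genes above that level and a larger sum, and they stood apart from the sorted libraries in both respects.

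The labels were checked against marker genes. CD24, the gate marker that CSC should lack, was 7.97, 7.64 and 7.61 FPKM in SUM149 CSC and 146.8, 137 and 134 FPKM in SUM149 non-CSC. The HCC1937 libraries had 23.6, 22.5 and 23.9 FPKM in CSC and 166.5, 141 and 142 FPKM in non-CSC. CD24 was far lower in every CSC library, and its transcript stayed detectable there. CD44 was the weaker separator, with 82.9 to 86.8 FPKM in SUM149 CSC against 61.4 to 67.0 FPKM in non-CSC, and 100.4 to 113 against 95.1 to 102 FPKM in HCC1937, where the fractions overlapped. In SUM159, CD24 was 0.682 to 0.759 FPKM and CD44 28.4 to 29.4 FPKM, so CD44 was lower than in any sorted library. PGR, the progesterone receptor gene, was at or near 0 in all 15 libraries. ESR1, the estrogen receptor gene, reached 1.86 FPKM in HCC1937 non-CSC at its highest, and mean ERBB2 ran from 3.55 FPKM in SUM149 CSC to 19.1 FPKM in SUM159.

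Desmosome genes were lower in the CSC fraction of both sorted lines, and the drop was deeper in SUM149 for 8 of 10 members and in HCC1937 for PERP and JUP. That difference between the lines (SUM149 minus HCC1937) was negative for 53.4% of all genes. By the call limits given below, it was called negative for 5 members and positive for 1. Each of the 10 members had all 3 CSC libraries below all 3 non-CSC libraries of the same line. Among all genes tested, 43.4% showed that order in SUM149 and 24.3% in HCC1937. Summed over the 10 members, FPKM was 97.7 to 101.5 in SUM149 CSC, 268.8 to 283.0 in SUM149 non-CSC, 184.2 to 186.7 in HCC1937 CSC, 458.6 to 467.1 in HCC1937 non-CSC and 97.4 to 103.6 in SUM159. The sums of SUM149 CSC and SUM159 overlapped in FPKM, although different members made them up. As a share of the FPKM of all genes they did not overlap, with 0.0320 to 0.0335% in SUM149 CSC and 0.0149 to 0.0160% in SUM159. All 10 members exceeded 1 FPKM in every non-CSC library and in every HCC1937 CSC library, 6 or 7 did in SUM149 CSC libraries, and 4 did in SUM159. In bulk RNA, fewer cells of a type and less RNA per cell cannot be told apart.

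**Figure D1:**
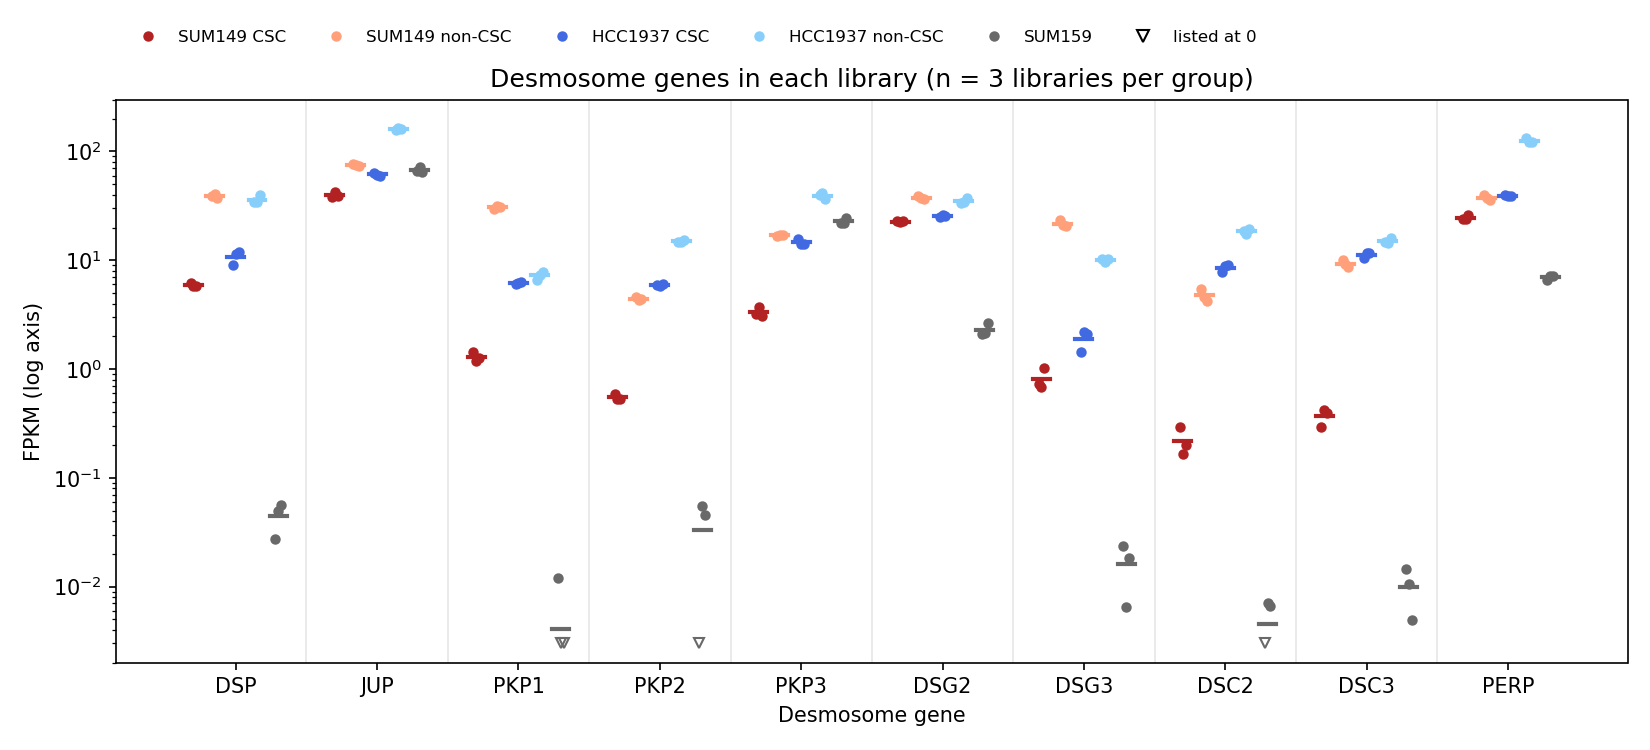
FPKM of the 10 desmosome genes (log axis) in each of 15 libraries, 3 per group; points are libraries, short lines are group means, and open triangles mark values listed at 0. The CSC points of SUM149 and of HCC1937 lie below the non-CSC points of the same line for all 10 genes, and SUM159 is lowest for 8 of 10.

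A gene was called lower or higher when limma gave an adjusted p of at most 0.05 and a log2 difference of at least 1 in size; the model took log2(FPKM + 0.1) of every gene that averaged 0.1 FPKM or more. The added 0.1 understates the change of genes with low values. All 10 members passed this filter in all 7 comparisons. In the sorted lines every member's group mean was above 0.1 FPKM, the lowest being 0.219 FPKM (DSC2 in SUM149 CSC). In SUM159, 6 members had means below 0.1 FPKM and passed only through the groups where they were higher, so their counts there are a description. An exact two-sided permutation test of 3 against 3 libraries cannot give a p below 0.1, so single genes were tested with the model across all genes.

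In SUM149, 7 of 10 members were called lower in CSC (DSP, DSC2, DSC3, DSG3, PKP1, PKP2 and PKP3) and 0 were called higher, against 22.1% of the 16037 genes tested that were called lower and 12.8% called higher. The median log2 difference was -2.75 for the members and -0.11 for all genes tested. In HCC1937, 7 of 10 members were called lower in CSC (DSP, DSC2, DSG3, PKP2, PKP3, JUP and PERP) and 0 higher, against 6.0% of 15582 genes called lower and 2.71% called higher. The median there was -1.35 for the members and -0.03 for all genes. With the study's stricter limit (adjusted p of at most 1e-04) applied to this limma fit of 6 libraries, 0 members were called lower in HCC1937 CSC. Of all 15582 genes, 0 were called lower there. The study itself reported genes that differed between the HCC1937 fractions, so these counts hold for the present fit only. At an adjusted p of at most 0.05, the called sets shared 5 members, which is 5 of 7 in each line: DSP, DSC2, DSG3, PKP2 and PKP3. The share of all genes called lower in both lines is not given here, so nothing is read from this overlap.

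**Figure D2:**
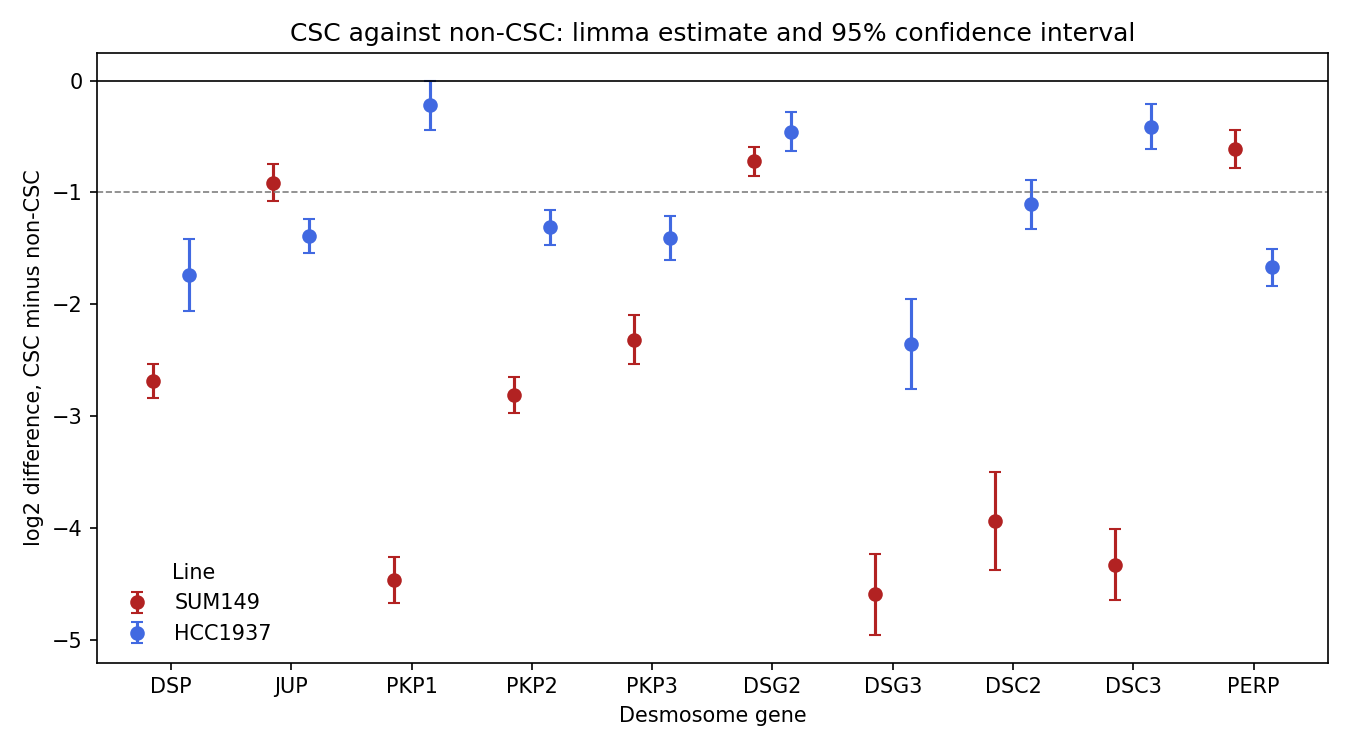
Log2 difference between CSC and non-CSC of SUM149 (red) and HCC1937 (blue) for each desmosome gene; points are limma estimates and bars 95% confidence intervals, from 3 libraries per group, and the dashed line marks -1. All 20 estimates lie below 0, from -4.59 for DSG3 in SUM149 to -0.22 for PKP1 in HCC1937.

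DSP encodes desmoplakin, the plaque protein that ties the junction to keratin filaments. It was 6.21, 5.76 and 5.85 FPKM in SUM149 CSC and 39.0, 40.3 and 37.1 FPKM in SUM149 non-CSC. HCC1937 had 9.07, 11.4 and 11.8 FPKM in CSC and 34.6, 34.0 and 39.4 FPKM in non-CSC. In SUM159 it was 0.0275, 0.0494 and 0.0567 FPKM. The non-CSC libraries of both lines were high and overlapped each other, the CSC libraries were low without overlap, and SUM159 was close to 0. DSP fell in SUM149 CSC, with a log2 difference of -2.69 (95% interval -2.84 to -2.53, limma adjusted p = 2.16e-06), and in HCC1937 CSC, with -1.74 (-2.06 to -1.42, limma adjusted p = 0.00061). The mean in non-CSC was 6.53 times that in CSC in SUM149 and 3.34 times in HCC1937.

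The 4 desmosomal cadherin genes of the member list did not move by the same amount. DSG2, the desmoglein found in most epithelia that have desmosomes, was the most abundant of them in every group. It was 22.8, 22.3 and 22.7 FPKM in SUM149 CSC and 38.7, 37.2 and 36.5 FPKM in non-CSC. In HCC1937 it was 25.1, 26.2 and 25.5 FPKM in CSC and 33.6, 34.5 and 37.5 FPKM in non-CSC. Every CSC library was below every non-CSC library, by a small margin, and the non-CSC fractions of the 2 lines overlapped. The log2 difference was -0.72 (-0.85 to -0.59, limma adjusted p = 7.29e-05) in SUM149 and -0.46 (-0.63 to -0.28, limma adjusted p = 0.00714) in HCC1937, under the size needed for a call in both. In SUM159, DSG2 was 2.09, 2.13 and 2.66 FPKM, below all sorted libraries.

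DSG3, a desmoglein typical of the basal layers of stratified epithelia, had the most negative difference of the 10 members in both sorted lines; with a pseudocount of 1, PKP1 passed it in SUM149 (-3.79 against -3.65). It was 0.730, 0.689 and 1.01 FPKM in SUM149 CSC and 23.2, 21.3 and 20.5 FPKM in non-CSC. The HCC1937 libraries had 1.45, 2.18 and 2.09 FPKM in CSC and 10.2, 9.57 and 10.3 FPKM in non-CSC. SUM149 non-CSC was the highest group and SUM149 CSC the lowest of the sorted groups, with no overlap anywhere in the order. DSG3 fell in SUM149 CSC (log2 difference -4.59, -4.96 to -4.23, limma adjusted p = 4.26e-06) and in HCC1937 CSC (-2.36, -2.76 to -1.95, limma adjusted p = 0.000513), at percentiles 0.624 and 1.16 of all genes tested. SUM159 had 0.0235, 0.00643 and 0.0182 FPKM.

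DSC2, the desmocollin that accompanies DSG2 in simple epithelia, was 0.293, 0.165 and 0.200 FPKM in SUM149 CSC and 5.46, 4.59 and 4.20 FPKM in non-CSC. HCC1937 had 7.78, 8.77 and 9.08 FPKM in CSC and 18.6, 17.4 and 19.4 FPKM in non-CSC. Even the CSC libraries of HCC1937 were above the non-CSC libraries of SUM149. DSC2 fell in SUM149 CSC (log2 difference -3.94, -4.37 to -3.50, limma adjusted p = 1.2e-05) and in HCC1937 CSC (-1.11, -1.32 to -0.89, limma adjusted p = 0.00076). The first value became -2.23 with a pseudocount of 1, and the second became -0.99 and lost its call under TPM (each library scaled to a common sum). In SUM159 it was listed at 0 in 1 library and at 0.00703 and 0.00661 FPKM in the others.

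DSC3, the desmocollin of basal cells, was 0.291, 0.419 and 0.394 FPKM in SUM149 CSC and 9.96, 9.15 and 8.60 FPKM in non-CSC. In HCC1937 it was 10.6, 11.7 and 11.6 FPKM in CSC and 14.8, 14.4 and 16.1 FPKM in non-CSC. The groups did not overlap, and the gap was wide in SUM149 and narrow in HCC1937. DSC3 fell in SUM149 CSC (log2 difference -4.33, -4.64 to -4.01, limma adjusted p = 3.62e-06). In HCC1937 its difference was -0.41 (-0.61 to -0.21, limma adjusted p = 0.015) and it was not called. The SUM159 libraries had 0.0144, 0.0107 and 0.00497 FPKM.

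The make-up of the cadherin pool shifted with these unequal changes. The 7 desmosomal cadherin genes (DSC1 to DSC3 and DSG1 to DSG4) summed to 24.0 ± 0.369 FPKM in SUM149 CSC and 73.1 ± 3.86 FPKM in SUM149 non-CSC. They summed to 47.4 ± 2.13 FPKM in HCC1937 CSC, 78.9 ± 3.91 FPKM in HCC1937 non-CSC and 2.32 ± 0.315 FPKM in SUM159. DSG2 held 94.2 ± 0.688% of that sum in SUM149 CSC and 51.2 ± 1.15% in non-CSC, a gap far beyond the spread of the libraries. In HCC1937 it held 54.0 ± 1.52% in CSC and 44.6 ± 1.02% in non-CSC, and in SUM159 98.7 ± 0.383%. SUM149 CSC and SUM159 therefore had pools made almost wholly of DSG2, while the pool of HCC1937 CSC was mixed. DSG3 made up 29.6 ± 0.34% of the pool in SUM149 non-CSC and 12.7 ± 0.395% in HCC1937 non-CSC, against 3.37 ± 0.692% and 4.0 ± 0.68% in the CSC of these lines. DSC3 behaved differently between the lines, with 1.53 ± 0.295% in SUM149 CSC against 12.6 ± 0.278% in non-CSC, but 23.8 ± 0.245% in HCC1937 CSC against 19.1 ± 0.182% in non-CSC. DSC2 held 18 ± 0.748% in HCC1937 CSC and 23.4 ± 0.61% in non-CSC, and 0.911 ± 0.268% and 6.48 ± 0.533% in the corresponding SUM149 fractions. These shares are a description and were not tested.

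**Figure D3:**
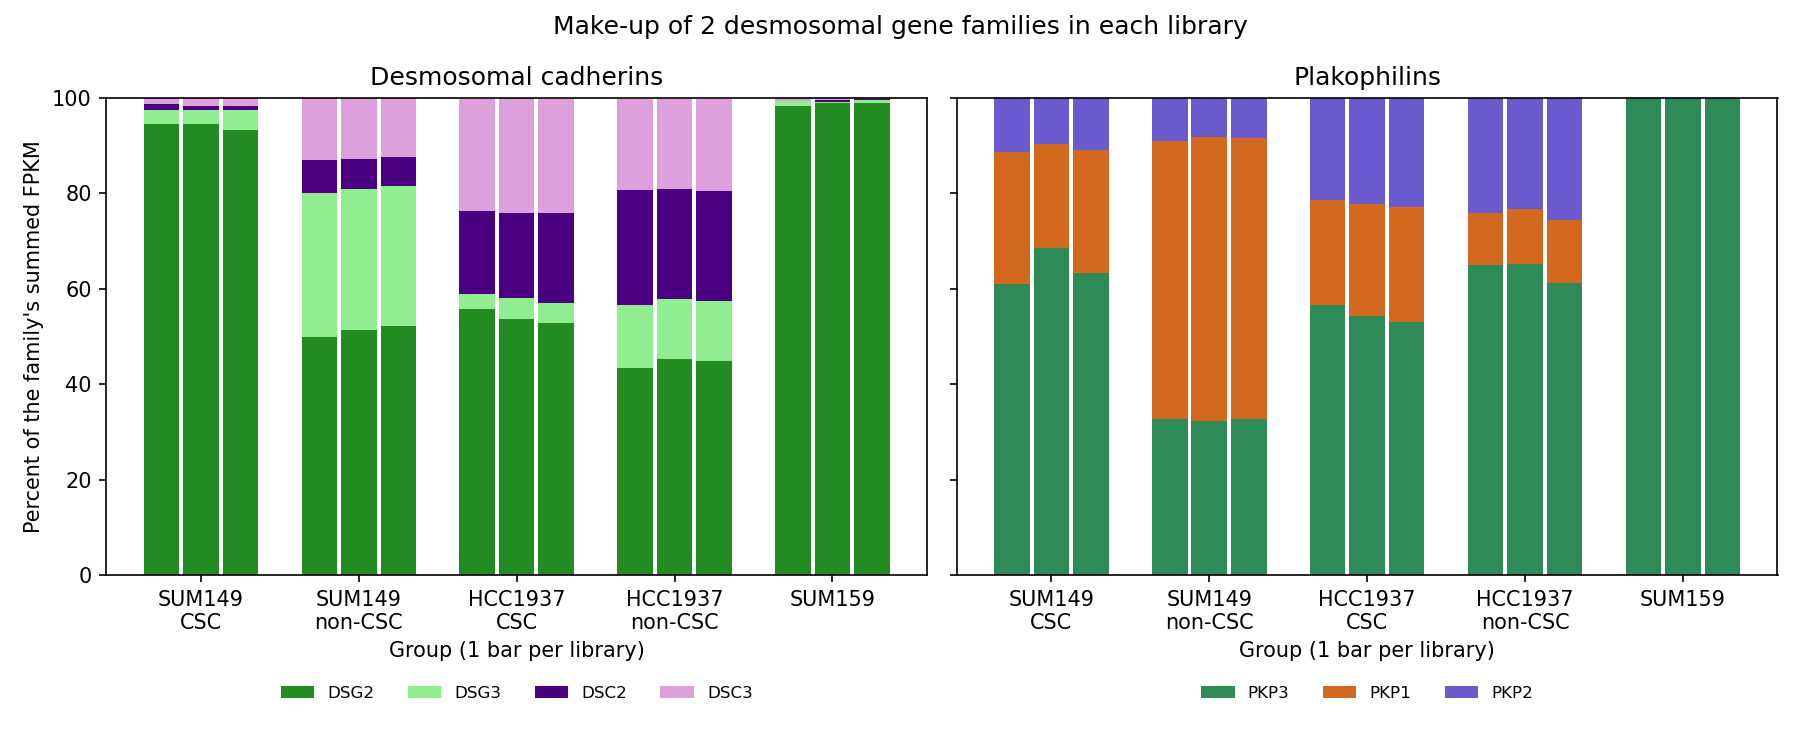
Share of each gene in the summed FPKM of the desmosomal cadherins (left) and of the 3 plakophilins (right), in percent, with 1 stacked bar per library and 3 libraries per group. DSG2 fills 94.2% of the cadherin bar on average in SUM149 CSC and 98.7% in SUM159, and PKP1 fills 58.9% of the plakophilin bar in SUM149 non-CSC against 11.8% in HCC1937 non-CSC.

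The cadherin genes lie side by side on the long arm of chromosome 18. In GENCODE release 29 (GRCh38) the 7 genes spanned 559001 bases, from the end of DSC3 at chr18:30990008-31042815 (minus strand) to DSG2 at chr18:31498043-31549008 (plus strand). The desmocollin genes, with DSC2 at chr18:31058840-31102522, are all on the minus strand and the desmoglein genes, with DSG3 at chr18:31447795-31478702, on the plus strand. Within this cluster the genes differed in expression by orders of magnitude. DSG1 and DSG4 were listed at 0 in all SUM149 CSC, HCC1937 CSC and SUM159 libraries, and DSC1 reached 0.171 FPKM at most. TTR, which follows DSG2 on the same strand, was listed at 0 in all 15 libraries. B4GALT6, the next gene of the list, was 1.76 to 1.93 FPKM in SUM149 CSC and 1.10 to 1.41 FPKM in non-CSC, a log2 difference of 0.56 (limma adjusted p = 0.00313) that was not called. Of the 9 listed genes of the cluster and its neighbours, 5 were tested in SUM149 and 3 called lower, against 22.1% of all genes, with a median of -3.94. In HCC1937, 6 were tested and 2 called lower, against 6.0%, with a median of -0.49. DSC1 passed the filter in HCC1937 only through the non-CSC libraries (mean 0.144 FPKM, against 0.0704 FPKM in CSC), so that median is a description. None were called higher in either line (0 of 5 and 0 of 6); the called genes were the members DSC2, DSC3 and DSG3 in SUM149 and DSC2 and DSG3 in HCC1937.

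The plakophilins strengthen the plaque by binding desmoplakin and the cadherin tails. PKP1, the plakophilin of stratified epithelia, was 1.44, 1.19 and 1.25 FPKM in SUM149 CSC and 29.6, 31.6 and 30.9 FPKM in non-CSC. The HCC1937 libraries had 5.99, 6.20 and 6.37 FPKM in CSC and 6.53, 7.34 and 7.85 FPKM in non-CSC. SUM149 non-CSC stood alone at the top, and the HCC1937 fractions were close to each other without overlapping. PKP1 fell in SUM149 CSC (log2 difference -4.47, -4.67 to -4.26, limma adjusted p = 1.55e-06). In HCC1937 the difference was -0.22 (-0.44 to -0.0012, limma adjusted p = 0.131) and did not pass the test. In SUM159 it was 0.0121 FPKM in 1 library and listed at 0 in the others.

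PKP2, the plakophilin with the widest tissue range, was 0.585, 0.530 and 0.528 FPKM in SUM149 CSC and 4.62, 4.30 and 4.38 FPKM in non-CSC. HCC1937 had 5.90, 5.82 and 6.09 FPKM in CSC and 14.7, 14.7 and 15.3 FPKM in non-CSC. As with DSC2, the CSC libraries of HCC1937 were above the non-CSC libraries of SUM149. PKP2 fell in SUM149 CSC (log2 difference -2.81, -2.97 to -2.65, limma adjusted p = 2.15e-06) and in HCC1937 CSC (-1.31, -1.47 to -1.16, limma adjusted p = 0.000185). In SUM159 it was listed at 0, 0.0548 and 0.0454 FPKM.

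PKP3, which binds the widest set of desmosomal partners among the plakophilins, was 3.18, 3.75 and 3.08 FPKM in SUM149 CSC and 16.6, 17.1 and 17.2 FPKM in non-CSC. In HCC1937 it was 15.6, 14.2 and 14.1 FPKM in CSC and 39.5, 41.1 and 36.7 FPKM in non-CSC. SUM159 had 21.9, 22.2 and 24.6 FPKM. In FPKM, SUM159 was thus second only to HCC1937 non-CSC, and SUM149 CSC was the lowest group. Under TPM, SUM159 was below HCC1937 CSC, by a log2 difference of -0.36. PKP3 fell in SUM149 CSC (log2 difference -2.32, -2.53 to -2.10, limma adjusted p = 7.11e-06) and in HCC1937 CSC (-1.41, -1.60 to -1.21, limma adjusted p = 0.000276).

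Summed plakophilin expression was 5.18 ± 0.303 FPKM in SUM149 CSC, 52.1 ± 1.13 FPKM in SUM149 non-CSC, 26.8 ± 0.615 FPKM in HCC1937 CSC, 61.2 ± 1.68 FPKM in HCC1937 non-CSC and 22.9 ± 1.46 FPKM in SUM159. PKP1 made up 25 ± 3.01% of the sum in SUM149 CSC and 58.9 ± 0.693% in SUM149 non-CSC. The order was the opposite in HCC1937, with 23.1 ± 1.14% in CSC and 11.8 ± 1.19% in non-CSC. PKP3 made up 64.4 ± 3.83%, 32.6 ± 0.242%, 54.7 ± 1.82% and 63.8 ± 2.21% in these 4 groups in the same order, and 99.8 ± 0.0978% in SUM159. The main plakophilin transcript was therefore PKP3 in 4 of the 5 groups and PKP1 in SUM149 non-CSC.

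JUP encodes plakoglobin, the armadillo protein that desmosomes share with adherens junctions. It was 38.1, 42.8 and 38.8 FPKM in SUM149 CSC and 76.3, 75.6 and 73.7 FPKM in non-CSC. The HCC1937 libraries had 63.1, 61.3 and 60.1 FPKM in CSC and 158, 164 and 163 FPKM in non-CSC. SUM159 had 66.7, 72.0 and 64.4 FPKM, between the HCC1937 CSC and the SUM149 non-CSC libraries and without overlap with either. JUP was the most abundant member over the 15 libraries, with a mean of 81.2 FPKM, and had the narrowest range, since its highest group mean was 4.05 times its lowest. Its log2 difference was -0.91 in SUM149 (-1.08 to -0.75, limma adjusted p = 6.97e-05), under the size needed for a call. It fell in HCC1937 CSC (log2 difference -1.39, -1.54 to -1.24, limma adjusted p = 0.00017).

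PERP, a membrane protein that p53 and p63 induce and that desmosomes of stratified epithelia need, was 24.0, 23.9 and 25.9 FPKM in SUM149 CSC and 39.5, 37.6 and 35.8 FPKM in non-CSC. HCC1937 had 39.7, 38.9 and 39.3 FPKM in CSC and 133, 121 and 122 FPKM in non-CSC. HCC1937 non-CSC stood far above all other groups, and HCC1937 CSC overlapped SUM149 non-CSC. In SUM149 the difference was -0.61 (-0.78 to -0.45, limma adjusted p = 0.000386), not large enough for a call. PERP fell in HCC1937 CSC (log2 difference -1.67, -1.84 to -1.5, limma adjusted p = 0.000146). SUM159 had 6.52, 7.20 and 7.12 FPKM, the lowest group.

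Whether the CSC difference itself differed between the lines was tested as an interaction, SUM149 minus HCC1937, over the 12 sorted libraries. It was called negative (a deeper drop in SUM149) for 5 of 10 members, against 18.2% of 16451 genes, and called positive for 1 of 10, against 12.2%. The median was -1.22 for the members and -0.08 for all genes. PKP1 had the most negative value, -4.25 (-4.51 to -3.98, limma adjusted p = 7.15e-09), followed by DSC3 at -3.92 (-4.26 to -3.57, limma adjusted p = 3.2e-08). The HCC1937 fractions of both genes lay close together (-0.22 for PKP1 and -0.41 for DSC3), as did those of DSG2 (-0.46). DSC2 had -2.83 (limma adjusted p = 1.65e-06), DSG3 -2.24 (limma adjusted p = 1.79e-05) and PKP2 -1.5 (limma adjusted p = 2.21e-07). With a pseudocount of 1 in place of 0.1, PKP2 became -0.62 and lost its call, and DSC2 became -1.20. PERP was the exception in the other direction, with 1.06 (0.86 to 1.26, limma adjusted p = 4.24e-06), since its drop was deeper in HCC1937; under TPM it became 0.98 and lost its call. DSP (-0.95), PKP3 (-0.91), JUP (0.48) and DSG2 (-0.27) were under the size needed for a call.

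Between the lines, HCC1937 CSC had more desmosome transcripts than SUM149 CSC. All 3 HCC1937 CSC libraries were above all 3 SUM149 CSC libraries for 10 of 10 members, an order seen in 47.1% of all genes tested. Of the 10 members, 6 were called higher (DSC2, DSC3, DSG3, PKP1, PKP2 and PKP3), against 25.7% of genes, and 0 lower, against 17.1%. DSG3 lost its call with a pseudocount of 1 (0.68) and under upper quartile (0.91) and quantile (0.87) scaling. The median was 1.62 for the members and 0.23 for all genes. The greatest values were those of DSC2, 4.77 (4.45 to 5.10, limma adjusted p = 7.98e-10), and DSC3, 4.62 (4.37 to 4.86, limma adjusted p = 1.44e-10), whose group means in HCC1937 CSC were 38.9 and 30.7 times those in SUM149 CSC. DSG2 was nearly level, with a log2 difference of 0.18 (0.05 to 0.30, limma adjusted p = 0.0153) that took the other sign under upper quartile and quantile scaling.

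The non-CSC fractions of the 2 lines were less one-sided. HCC1937 was called higher for 5 of 10 members (DSC2, PKP2, PKP3, JUP and PERP), against 21.9% of genes, and lower for 2 of 10 (DSG3 and PKP1), against 20.4%. Under upper quartile scaling JUP (0.87) and PKP3 (0.96) lost their calls, JUP also under TPM (0.94) and with the GC or the length trend removed (0.99 and 0.91), and DSG3 with the length trend removed (-0.90). The median was 0.90 for the members and 0.10 for all genes. PKP1 was -2.07 (-2.26 to -1.88, limma adjusted p = 7.15e-09) and DSG3 -1.10 (-1.46 to -0.74, limma adjusted p = 0.000116). DSC2 was 1.94 (1.62 to 2.27, limma adjusted p = 6.17e-07), PKP2 1.73 (1.60 to 1.85, limma adjusted p = 1.66e-09) and PERP 1.73 (1.59 to 1.87, limma adjusted p = 3.06e-09). DSP (-0.11, limma adjusted p = 0.347) and DSG2 (-0.09, limma adjusted p = 0.165) did not pass the test, and their libraries overlapped.

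Ordered by group mean, HCC1937 non-CSC was the highest group for 6 members and SUM149 non-CSC for 4 (DSP, DSG2, DSG3 and PKP1). SUM159 was the lowest group for 8 members, and SUM149 CSC for the other 2, PKP3 and JUP. Among all genes, every SUM159 library was below every SUM149 CSC library in 56.0%, and below every HCC1937 CSC library in 58.6%. The share of all genes with SUM159 as the lowest group is not given here. For JUP the order turned under TPM, where SUM159 was below SUM149 CSC by a log2 difference of -0.33. With the GC trend removed, SUM159 was above SUM149 CSC for DSC2 (1.24), DSC3 (0.61) and PERP (0.72). Of the 40 pairs of neighbouring groups in these orders, 3 had overlapping libraries: the non-CSC fractions for DSP and for DSG2, and HCC1937 CSC with SUM149 non-CSC for PERP. The like count over all genes is not given here, so nothing is read from it. Lack of overlap was common: all HCC1937 CSC libraries were above all SUM149 CSC libraries in 47.1% of all genes, and below in 33.1%.

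SUM159 expressed 4 of the members above 1 FPKM and had almost none of the rest. In FPKM, PKP3 and JUP were above both CSC groups, an order that TPM kept only for PKP3 against SUM149 CSC; DSG2 and PERP were at a few FPKM, and DSP, DSC2, DSC3, DSG3, PKP1 and PKP2 had means between 0.00403 and 0.0445 FPKM. The 2 comparisons with sorted CSC share the SUM159 libraries, and SUM159 differs from the other groups in line as well as in having been left unsorted, so line and sorting cannot be told apart. The labels do not say whether its libraries were prepared and sequenced with the others, so a difference of that kind, beside the larger FPKM sum, cannot be told apart from them either. Against SUM149 CSC, 8 of 10 members were called lower, against 43.5% of 15788 genes, and 1 of 10 (PKP3) higher, against 20.0%. Against HCC1937 CSC, 8 of 10 were called lower, against 47.2%, and 0 higher, against 18.4%. In both comparisons 6 of the 8 are the members that passed the filter only through the CSC groups, so nothing is read from these counts; the other 2 are DSG2 and PERP.

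In SUM159 the log2 differences followed the GC content of the transcripts. The median over genes ran from -2.94 at a GC content of 37.6% to 0.70 at 65.9% in the comparison with SUM149 CSC. GC content was known for 87.1% of the genes tested there. Each member is therefore given beside the median of genes within 2 percentage points of its own GC content, and the part of GC content in these differences was not tested. For the 6 members near 0 in SUM159 the values are a description, since the added 0.1 limits how negative they can become.

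DSP (48.2% GC) was -5.39 against SUM149 CSC, where genes of like GC content had a median of -1.12, and -6.23 against HCC1937 CSC, where they had -1.31. PKP1 (56.4% GC) was -3.74 and -5.92 in the same comparisons, beside medians of 0.37 and 0.14. The desmocollins, with the lowest GC content of the members (37.9% for DSC2 and 39.9% for DSC3), were -1.59 and -2.08 against SUM149 CSC beside medians of -2.93 and -2.75. Against HCC1937 CSC they were -6.37 and -6.69 beside -3.06 and -2.92. The values of the desmocollins against SUM149 CSC, where they were already low, took the other sign when the GC trend or the length trend was removed.

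DSG2 (41.2% GC) was -3.26 and -3.43 against SUM149 and HCC1937 CSC beside medians of -2.60 and -2.67, and PERP, of the same GC content, was -1.81 and -2.48. Both were near the middle of genes of like GC content, at percentiles 31.7 and 32.5 for DSG2 and 66.9 and 55.1 for PERP. With the GC trend removed DSG2 became -0.73 and -0.80 and lost both calls, and PERP took the other sign in both comparisons, as it did in the first with the length trend removed. DSG3 (42.4% GC) was -2.96 beside -2.41 and -4.09 beside -2.55. PKP2 (43.7% GC) was -2.30 beside -2.14 and -5.53 beside -2.30. PKP3 (70.0% GC) was 2.74 against SUM149 CSC (limma adjusted p = 1.77e-08) beside a median of 0.83 over 109 genes, at percentile 95.4, and 0.64 against HCC1937 CSC beside 0.66. JUP (63.2% GC) was 0.76 beside 0.69 and 0.14 (limma adjusted p = 0.126) beside 0.51. JUP was in the middle of genes of like GC content, and its sign turned in both comparisons under TPM, as did that of PKP3 against HCC1937 CSC; JUP against HCC1937 CSC also turned under quantile scaling and with the GC trend removed.

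**Figure D4:**
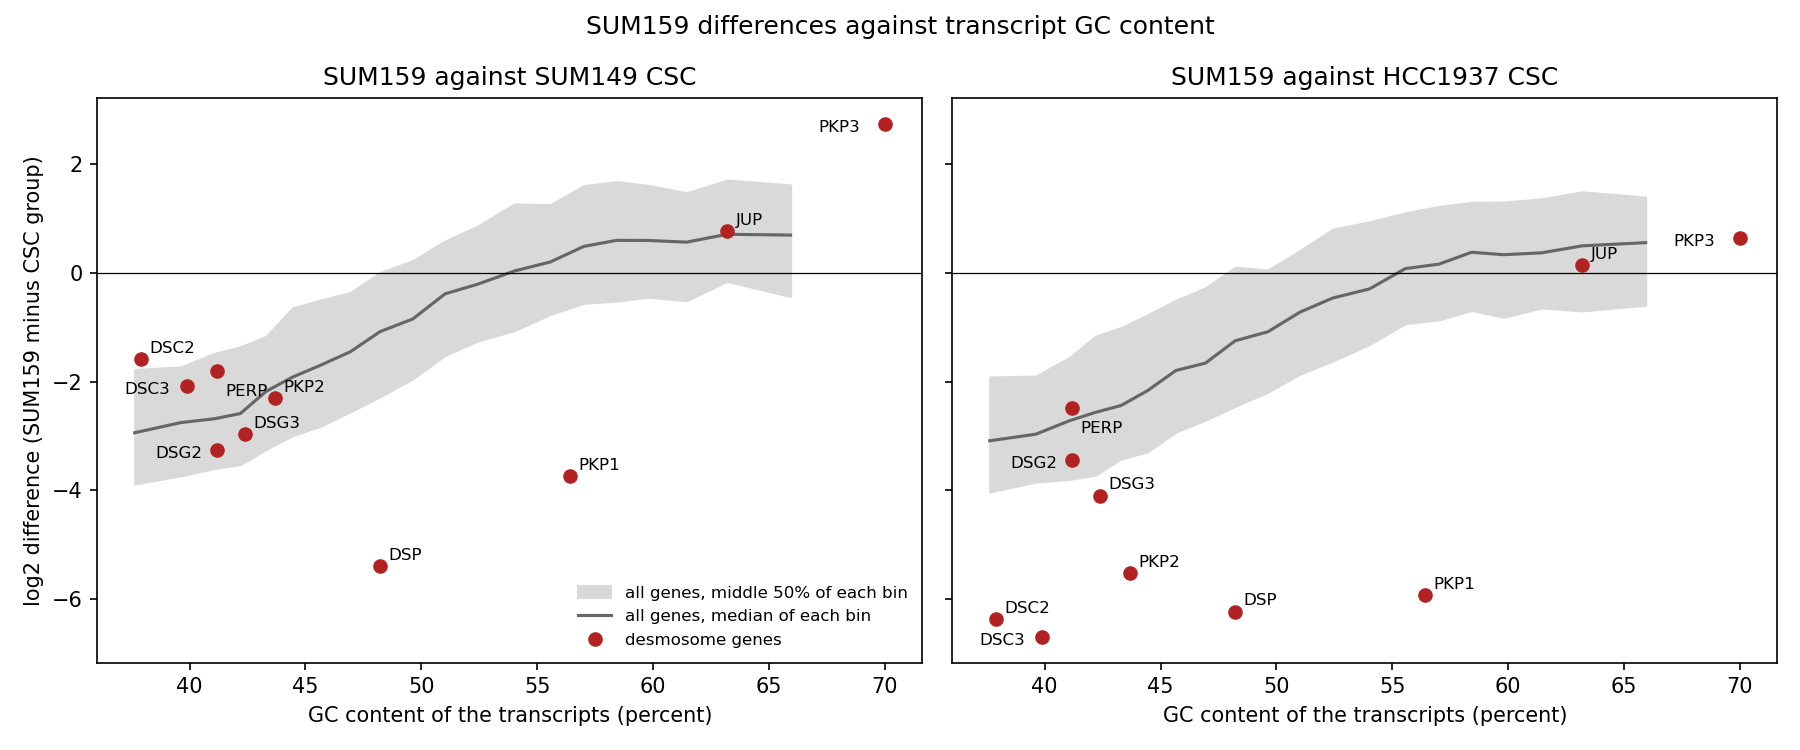
Log2 difference of SUM159 from SUM149 CSC (left) and from HCC1937 CSC (right) against GC content in percent; the line is the median and the band the middle 50% of genes in each of 20 bins, and red points are the desmosome genes. The median rises from -2.94 to 0.70 on the left, and DSP and PKP1 lie below the band in both panels.

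The members' patterns over the 5 groups were compared with each other. As a measure of likeness, the root mean square difference between centred log2 group means was taken, so that 0 means parallel patterns. DSC2 and DSC3 were the closest pair (0.423), and DSC2 was also the nearest member to PKP2 (0.55). DSG3 and PKP1, which shared their peak in SUM149 non-CSC, were each other's nearest member (0.738), and PKP1 was also nearest to DSP (0.837). PKP3 and JUP, the members that were high in SUM159, paired at 0.668, and DSG2 and PERP at 0.744. SUM159, where differences followed GC content, enters these distances. PKP3 and JUP had 70.0% and 63.2% GC, DSG2 and PERP 41.2% each, and DSC2 and DSC3 37.9% and 39.9%. The part of GC content in the distances was not tested. The farthest pair was DSP with PKP3 (3.13). The mean pattern of the 10 members, centred on 0, was -1.21 in SUM149 CSC, 1.53 in SUM149 non-CSC, 0.82 in HCC1937 CSC, 2.03 in HCC1937 non-CSC and -3.17 in SUM159, and PKP2 was nearest to it (0.667) and PKP3 farthest (1.90).

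Of 12154 genes compared, all averaging 1 FPKM or more, the 6 outside the member list with patterns most like that mean were LOC729737 (0.217), RAPGEFL1 (0.219), LOC102724384 (0.262), UPK3B (0.278), STYK1 (0.278) and ARL14 (0.292), where the median gene had 1.77. RAPGEFL1, for example, was 1.06, 0.718 and 0.761 FPKM in SUM149 CSC, 6.07, 6.95 and 6.61 FPKM in SUM149 non-CSC, 4.10, 4.48 and 4.40 FPKM in HCC1937 CSC, 9.73, 9.98 and 11.1 FPKM in HCC1937 non-CSC, and 0.252, 0.304 and 0.266 FPKM in SUM159. Its groups followed the order of the mean pattern without overlap.

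The other desmosome and cornified junction genes of a list of 8 gave a mixed picture. In SUM149, 4 of 8 were tested, 3 were called lower and 0 higher, against 22.1% and 12.8% of all genes, with a median of -2.56. In HCC1937, 6 of 8 were tested, 3 called lower and 0 higher, against 6.0% and 2.71%, with a median of -0.91. One of the tested genes, DSC1 (-0.53, not called), passed the filter there only through the non-CSC libraries, so that median is a description. The plakins PPL (periplakin) and EVPL (envoplakin), relatives of desmoplakin, were lower in the CSC of both lines. PPL was 0.414, 0.393 and 0.396 FPKM in SUM149 CSC and 8.0, 8.39 and 7.80 FPKM in non-CSC, a log2 difference of -4.03 (limma adjusted p = 1.4e-06). EVPL was 0.227, 0.241 and 0.193 FPKM against 5.92, 6.26 and 5.79 FPKM there, a log2 difference of -4.25 (limma adjusted p = 1.55e-06). Their CSC and non-CSC libraries did not overlap in SUM149. They also fell in HCC1937 CSC, with log2 differences of -1.33 and -1.30 (limma adjusted p = 0.000197 and 0.000276). CDSN, which encodes corneodesmosin, was listed at 0 in all 6 SUM149 libraries, and was 9.73, 3.40 and 3.58 FPKM in HCC1937 CSC and 23.6, 20.4 and 31.7 FPKM in non-CSC (-2.31, limma adjusted p = 0.0143). PKP4, an armadillo protein related to the plakophilins, was between 7.57 and 10.9 FPKM in all sorted libraries and was not called in either line (0.23 and -0.21). KAZN (kazrin), chosen after its values were seen, was called lower in SUM149 (-1.08).

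Keratins, the filaments that desmosomes anchor, were lower with them. Of the 11 intermediate filament genes, 8 were called lower and 1 higher in each sorted line, against 22.1% and 12.8% of all genes in SUM149 and 6.0% and 2.71% in HCC1937. The medians were -3.02 in SUM149 and -1.40 in HCC1937. KRT18, the keratin of simple epithelia, was 39.5, 41.8 and 41.4 FPKM in SUM149 CSC and 204, 208 and 233 FPKM in non-CSC. KRT19 was 42.4, 41.1 and 42.3 FPKM against 1151, 1107 and 1123 FPKM. Both were lower in every CSC library of SUM149, with log2 differences of -2.39 and -4.75 (limma adjusted p = 3.82e-06 and 1.4e-06), and also fell in HCC1937, with -1.52 and -2.29 (limma adjusted p = 0.000882 and 0.000834). KRT7 differed by -0.98 in both lines and was not called. VIM (vimentin), the mesenchymal filament and the 1 gene of the list called higher, was 2008, 2187 and 2075 FPKM in SUM149 CSC and 226, 222 and 284 FPKM in non-CSC. In HCC1937 it was 1012, 882 and 857 FPKM in CSC and 121, 187 and 160.2 FPKM in non-CSC. VIM rose by 3.11 and 2.57 (limma adjusted p = 6.27e-06 and 0.000502). KRT6A, KRT6B, KRT16 and KRT17 have close copies that can share reads, so their values are uncertain.

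Hemidesmosome genes, which anchor keratin to the basement membrane instead of to a neighbouring cell, were mixed in SUM149, and in HCC1937 the calls were all lower. In SUM149, 2 of 8 were called lower (LAMA3 and LAMB3), against 22.1% of all genes, and 2 higher (ITGA6 and DST), against 12.8%, with a median of 0.70. In HCC1937, 3 of 8 were called lower (ITGB4, LAMA3 and COL17A1), against 6.0%, and 0 higher, against 2.71%, with a median of -0.42. LAMB3, a laminin chain, was -1.42 in SUM149 and -0.73 in HCC1937, and ITGB4, an integrin chain, 0.04 and -1.41. PLEC (plectin, a plakin) was 0.91 and 0.09, and CD151 0.92 and -0.11. The lower-abundance genes named by these counts were chosen after their values were seen.

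In the adherens junction list, 2 of 6 genes were called lower and 1 higher in each line, beside 22.1% and 12.8% of all genes in SUM149 and 6.0% and 2.71% in HCC1937, with medians of -0.51 and -0.53. CDH1 (E-cadherin) was 3.37, 3.04 and 3.56 FPKM in SUM149 CSC and 80.3, 80.9 and 73.7 FPKM in non-CSC. It fell there and in HCC1937 (log2 differences of -4.52 and -2.29, limma adjusted p = 1.51e-06 and 0.000128). CDH3 (P-cadherin, of basal cells) fell in both lines (-4.27 and -1.84, limma adjusted p = 1.49e-06 and 0.000128). The catenins CTNNA1 (0.82 and -0.24) and CTNNB1 (-0.20 and -0.15) were not called. CDH2 (N-cadherin), chosen after its values were seen, rose by 2.68 and 1.80 (limma adjusted p = 1.81e-06 and 0.000417).

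Most transcription factors of the epithelial state, and the splicing factor listed with them, were lower in the same fractions. Of 9 such genes, 6 were called lower and 1 higher in SUM149 (all genes: 22.1% and 12.8%), with a median of -2.75, and 6 lower and 0 higher in HCC1937 (all genes: 6.0% and 2.71%), with a median of -2.35. ELF3 was 30.7, 35.1 and 32.7 FPKM in SUM149 CSC and 194, 205 and 176 FPKM in non-CSC. It fell there and in HCC1937 (log2 differences of -2.54 and -2.40, limma adjusted p = 5.35e-06 and 0.000128). GRHL1 fell in both lines (-2.75 and -2.35, limma adjusted p = 3.36e-06 and 0.000136), and so did ESRP1, an epithelial splicing factor (-4.0 and -2.20, limma adjusted p = 1.82e-06 and 0.000146). KLF4 differed by -0.73 and -0.22 and was not called. TP63, a basal cell factor known to induce PERP and chosen here after its values were seen, was 12.1, 10.7 and 11.7 FPKM in SUM149 CSC and 2.17, 2.12 and 2.81 FPKM in non-CSC. TP63 thus rose in SUM149 CSC, by 2.24 (limma adjusted p = 2.48e-05), and in HCC1937 it was -0.81 (limma adjusted p = 0.0011), under the size needed for a call. The interaction for TP63 was 3.05 (limma adjusted p = 1.05e-07).

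Repressors of epithelial genes differed between the lines. In SUM149, 3 of 5 were called higher (ZEB1, ZEB2 and SNAI2) and 2 lower (SNAI1 and TWIST1), where 12.8% and 22.1% of all genes were, with a median of 1.92. In HCC1937, 3 of 5 were called higher (ZEB1, ZEB2 and TWIST1) and 0 lower, where 2.71% and 6.0% of all genes were, with a median of 1.63. ZEB1 was 7.39, 6.43 and 6.63 FPKM in SUM149 CSC and 0.778, 0.633 and 0.916 FPKM in non-CSC. It rose by 2.99 there and by 2.09 in HCC1937 (limma adjusted p = 1.23e-05 and 0.000464). SNAI1 was 58.9, 65.4 and 61.5 FPKM in SUM149 CSC and 379, 371 and 368 FPKM in non-CSC. The HCC1937 libraries had 8.41 to 10.7 FPKM over both fractions. SNAI1 fell in SUM149 CSC (-2.59, limma adjusted p = 2.23e-06) and was 0.12 in HCC1937 (limma adjusted p = 0.483). TWIST1 was -1.02 in SUM149 and 1.63 in HCC1937, with an interaction of -2.64 (limma adjusted p = 1.35e-07), and SNAI2 was 1.92 and 0.37. ZEB2, outside the 4 most abundant of the list, was chosen after its values were seen (1.98 and 2.30).

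Between the fractions of the sorted lines, enzymes that act on desmosomes after synthesis were called only in the higher direction. Of 5 genes, 0 were called lower and 2 higher in SUM149 (PRKCA and SRC), against 22.1% and 12.8% of all genes, with a median of 0.87. In HCC1937, 0 were lower and 1 higher (PRKCA), against 6.0% and 2.71%, with a median of 0.09. SRC rose by 1.08 in SUM149 (limma adjusted p = 3.84e-05) and was -0.17 in HCC1937. The sheddases ADAM10 (0.23 and 0.08) and ADAM17 (-0.76 and 0.09) and the receptor EGFR (0.87 and 0.28) were not called. PRKCA, the kinase known to loosen desmosomes, chosen after its values were seen, rose by 2.48 and 1.19 (limma adjusted p = 1.98e-06 and 0.00061).

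**Figure D5:**
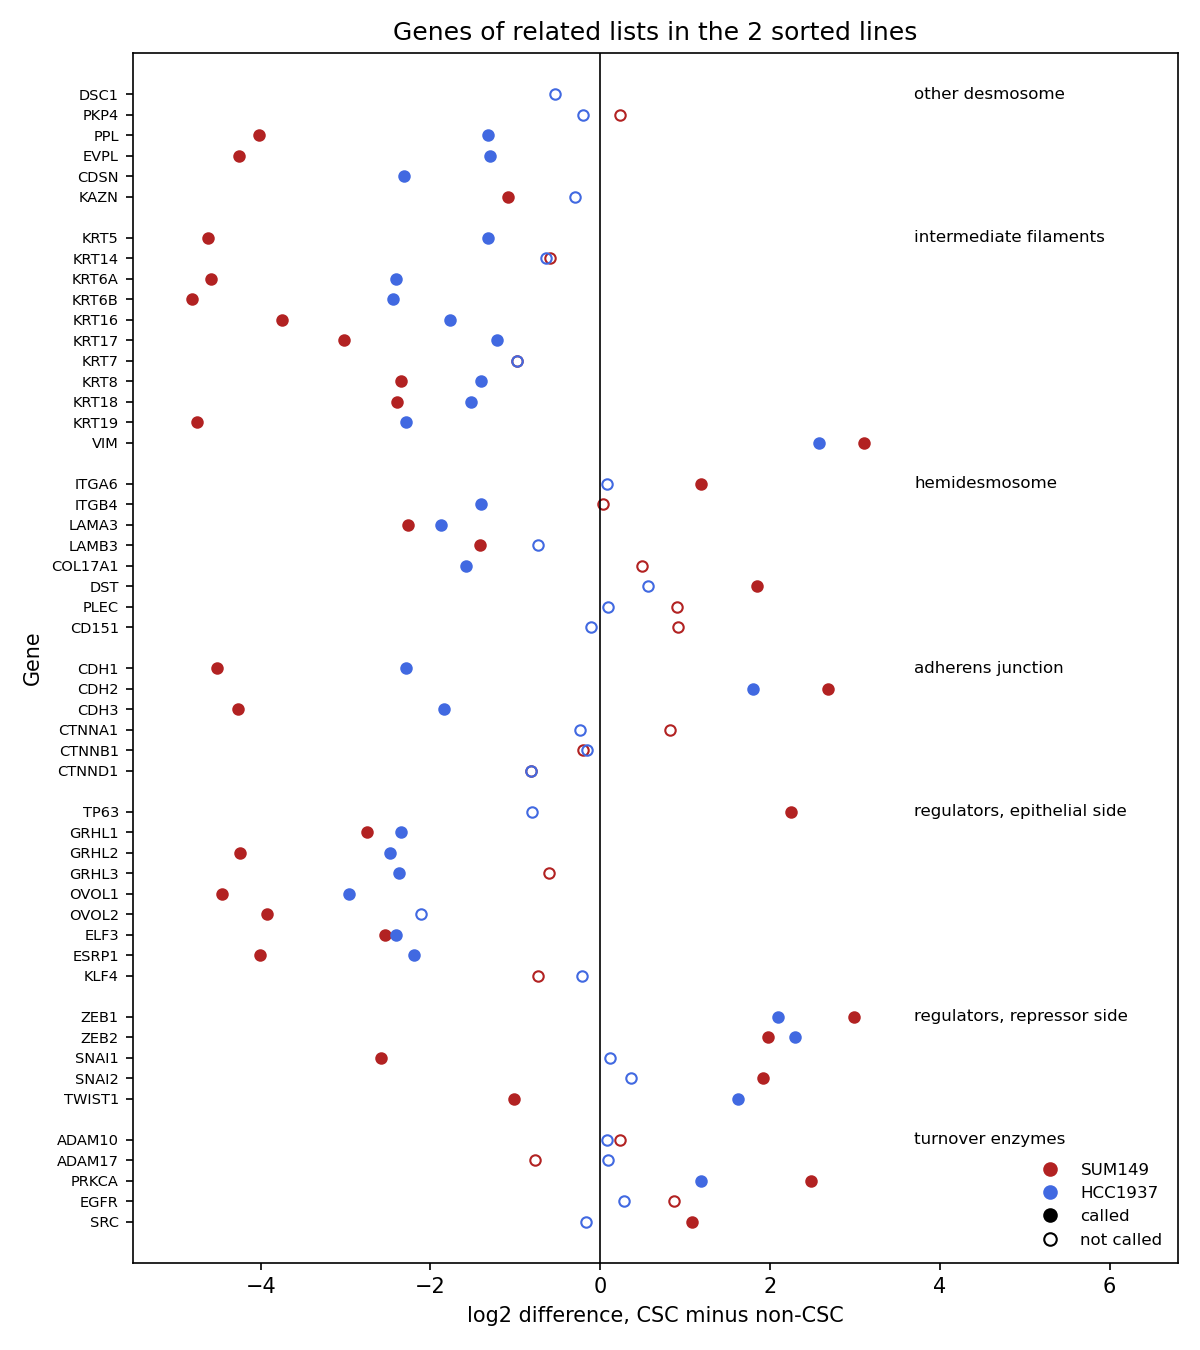
Log2 difference between CSC and non-CSC in SUM149 (red) and HCC1937 (blue) for the tested genes of 7 related lists; filled points were called and open points were not, from 3 libraries per group. Keratins lie on the negative side in both lines while VIM lies at 3.11 and 2.57, and hemidesmosome genes lie on both sides of 0.

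SUM159 was also set against HCC1937 CSC and SUM149 CSC for some of these lists. All 9 epithelial regulators and all 6 adherens junction genes were called lower in SUM159 against each CSC group, where 43.5% (SUM149 CSC) and 47.2% (HCC1937 CSC) of all genes were. Since 5 of the regulators (GRHL1, GRHL2, GRHL3, OVOL1 and OVOL2, named after their values were seen) and CDH1 were under 0.1 FPKM in SUM159 and passed the filter only through the CSC groups, these counts are a description. Of the 5 repressors, 4 were called lower and 0 higher against SUM149 CSC, beside 43.5% and 20.0% of all genes. Against HCC1937 CSC, 3 were called lower and 0 higher, beside 47.2% and 18.4%. All 5 enzymes that act on desmosomes were called lower against SUM149 CSC, beside 43.5% of all genes. Against HCC1937 CSC, 3 of these 5 were (ADAM10, ADAM17 and EGFR), beside 47.2%, and 0 were called higher in either comparison. ZEB1 was 0.117 to 0.268 FPKM in SUM159, and VIM 1062 to 1091 FPKM. GC content is not given for the genes of these lists, and the part of the GC trend in their values was not tested.

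Between the fractions of both sorted lines, markers of the epithelial and mesenchymal states changed along with the desmosome genes. The 4 epithelial markers (EPCAM, CDH1, KRT8 and KRT18) were all called lower, and the 3 mesenchymal markers (VIM, ZEB1 and CDH2) all called higher, in the CSC of both lines, where 22.1% and 12.8% of all genes were in SUM149 and 6.0% and 2.71% in HCC1937. Summed FPKM of the epithelial markers was 79.9 to 86.4 in SUM149 CSC, 529.8 to 538 in SUM149 non-CSC, 418 to 503 in HCC1937 CSC, 1212 to 1421 in HCC1937 non-CSC and 275 to 291 in SUM159, with a keratin, KRT18 or KRT8, as the most abundant gene. In SUM159 nearly all of the sum was KRT8 and KRT18, while EPCAM and CDH1 had means of 0.0467 and 0.0681 FPKM, under the 2.49 and 3.32 FPKM of SUM149 CSC. Summed FPKM of the mesenchymal markers was 2037 to 2215, 226 to 288, 893 to 1048, 129 to 197.5 and 1066 to 1094 in the same order, nearly all of it VIM. ZEB1 and CDH2 had means of 0.204 and 2.86 FPKM in SUM159, under the 6.82 and 21.8 FPKM of SUM149 CSC. Both were called lower in SUM159 against each CSC group, where 43.5% (SUM149 CSC) and 47.2% (HCC1937 CSC) of all genes were. KRT8 and KRT18 were called higher against SUM149 CSC, where 20.0% of all genes were. The part of a shift in cell state in the desmosome values was not tested.

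Markers of cells outside the tumor were near 0, apart from CD68. The 7 genes of that list (PTPRC, CD3E, CD68, PECAM1, CDH5, HBA1 and HBB) summed to 16.1 to 16.5 FPKM in SUM149 CSC, 48.4 to 51.0 in SUM149 non-CSC, 40.6 to 45.0 in HCC1937 CSC, 39.9 to 42.3 in HCC1937 non-CSC and 30.5 to 34.1 in SUM159. CD68 supplied 16.2, 48.3, 42.3, 40.0 and 31.9 FPKM of these sums on average. CD3E was listed at 0 in all 15 libraries, and PTPRC, the general leukocyte marker, reached 0.0986 FPKM at most. In SUM149, 4 of the 4 tested genes were called lower in CSC, and in HCC1937 1 of 3 (CDH5), with 0 called higher in each (all genes: 22.1% lower and 12.8% higher in SUM149, 6.0% and 2.71% in HCC1937); those in SUM149 were CD68, PECAM1, CDH5 and HBA1. CDH5 in both lines and HBA1 in SUM149 passed the filter only through the non-CSC libraries, so lower was the only call open to them. Their part in the desmosome values was not tested.

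Because most members moved together between the fractions, the stretch of DNA before their start sites was searched for short motifs. RefSeq promoters (GRCh38.p14) were found for 8 of 10 members in 10 entries, since DSC2 and JUP have 2 each; PKP2 and PKP3 had no entry. The 250 bases before each start were searched on both strands. The E-box CANNTG, the general motif of which ZEB and SNAIL factors bind a form, was in 5 of 10 member entries and in 61.8% of all 35116 promoters. Its form CACCTG, or on the other strand CAGGTG, which counts within CANNTG, was in 4 of 10 entries (DSC2, DSG2, DSP and JUP) and in 17.5% of all promoters. The AP-1 motif TGANTCA was in 1 of 10, PERP, and in 6.57% of all. The grainyhead motif AACNGGTT, or on the other strand AACCNGTT, was in 0 of 10 and in 1.49% of all, and GGGCGG, or on the other strand CCGCCC, bound by SP1, was in 7 of 10 and in 42.6% of all. A match here is only a run of letters, not a bound site, and a missing one says only that these letters are not in this window.

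The promoters of DSP, DSG3 and PERP are shown because DSP, the link to keratin, was called lower in the CSC of both lines, DSG3 had the most negative CSC differences, and PERP had its deeper drop in HCC1937. Each is written 5′ to 3′ on the strand of its gene, and ends before the first base of the gene in GENCODE release 29. Capitals mark a match to CANNTG (DSP and DSG3) or to TGANTCA (PERP). They are DSP at chr6:7541421-7541574 (plus strand, 154 bases), DSG3 at chr18:31447491-31447740 (plus strand, 250 bases) and PERP at chr6:138107512-138107669 (minus strand, 158 bases), all in GRCh38.p14.
DSP: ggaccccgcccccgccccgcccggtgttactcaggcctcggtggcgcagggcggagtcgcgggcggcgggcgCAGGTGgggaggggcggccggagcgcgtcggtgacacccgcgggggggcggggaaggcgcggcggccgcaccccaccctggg
DSG3: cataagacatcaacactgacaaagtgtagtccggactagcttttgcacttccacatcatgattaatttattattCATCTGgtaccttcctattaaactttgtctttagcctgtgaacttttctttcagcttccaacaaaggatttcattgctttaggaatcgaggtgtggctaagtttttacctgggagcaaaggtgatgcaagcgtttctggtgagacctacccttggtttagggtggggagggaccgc
PERP: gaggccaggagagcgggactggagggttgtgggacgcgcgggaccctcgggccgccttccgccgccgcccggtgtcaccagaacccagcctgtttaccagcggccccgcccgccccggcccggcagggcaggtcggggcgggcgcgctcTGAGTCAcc
Another match of DSP to CANNTG lies in the searched window past the printed stretch. In the searched windows GGGCGG had 7 matches for DSP, 5 for PERP and 0 for DSG3. The genes themselves lie at chr6:7541575-7586717 (DSP), chr6:138088505-138107511 (PERP, minus strand), chr1:201283452-201332993 (PKP1), chr12:32790745-32896840 (PKP2, minus strand), chr11:392614-404908 (PKP3) and chr17:41754604-41786931 (JUP, minus strand) in GENCODE release 29, so that outside the cadherin cluster the members are spread over 5 chromosomes.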

How the data were processed

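Polyadenylated RNA of 15 libraries (5 groups of 3) had been sequenced on an Illumina instrument. The deposited table gives FPKM, which the authors computed from their reads. The submitters' processing notes name Bowtie2 and GRCh38; the quantification tool and annotation are not given in the sources used here. Each column was matched to its sample by name, with 0 unmatched columns. Absolute depth is unknown, so no counting error could be given.

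Differences were computed with limma 3.58.1 in R 4.3.3 (lmFit and eBayes, no replicate block) on log2(FPKM + 0.1) for genes that averaged 0.1 FPKM or more in the libraries of the fit, with Benjamini-Hochberg adjustment over all genes tested. SUM149 and HCC1937 were each fitted on their 6 libraries, the interaction and the comparisons between these lines on the 12 sorted libraries, and SUM159 on the 9 libraries labelled as stem cells. Calls required an adjusted p no higher than 0.05 and a log2 difference of 1 or more in size. Nothing says that libraries of a group came from separate cultures, so p-values measure only the spread between these libraries. The fit was tested on simulated data with known changes before use.

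All 10 members are named, and of each related list the 4 genes with the highest mean FPKM over the 15 libraries; other genes singled out by small counts are said to be chosen after their values were seen. Of the related lists, 3 genes of the plan are not reported here, and the counts and medians leave them out. For likeness, the 6 genes nearest to the members' mean pattern are named. The members and lists were chosen with earlier results of these data known. Positions and transcript GC content came from GENCODE release 29, and promoters from a RefSeq table (GRCh38.p14). Summaries used Python 3.11.15, pandas 2.3.3, numpy 2.4.6 and matplotlib 3.10.9. Alternatives tried were pseudocounts of 0.01 and 1, no filter and a filter at 1 FPKM, TPM, quantile and upper quartile scaling, the trend and robust options of eBayes, a fit over all 15 libraries, a replicate block, no limit on the fold change, the study's limit on adjusted p, each library left out in turn, and removal of a GC or length trend, the last chosen after seeing the data.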

Additional observations from a re-analysis of the deposited data

Results flagged for a closer look

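For each of the 10 members, the CSC difference of SUM149 was set against that of HCC1937, and the interaction term of limma over the 12 sorted libraries had an adjusted p of at most 0.05. At that limit 5426 of all 16451 genes were negative and 4627 positive, so passing it was common. The values are SUM149 minus HCC1937 on the log2 scale, so a negative value means a deeper drop in SUM149 CSC. PKP1 had -4.25 (limma adjusted p = 7.15e-09) and DSC3 -3.92 (limma adjusted p = 3.2e-08); in HCC1937 the fractions of these genes lay close together. DSC2 had -2.83 (limma adjusted p = 1.65e-06), DSG3 -2.24 (limma adjusted p = 1.79e-05) and PKP2 -1.5 (limma adjusted p = 2.21e-07). DSP had -0.95 (limma adjusted p = 0.000274), PKP3 -0.91 (limma adjusted p = 7.93e-05) and DSG2 -0.27 (limma adjusted p = 0.0147), all smaller than a doubling of the ratio. PERP had 1.06 (limma adjusted p = 4.24e-06) and JUP 0.48 (limma adjusted p = 0.00057), with the deeper drop in HCC1937 CSC. The cause of these differences was not tested.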

How the results depend on the processing

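Alternatives were other pseudocounts, filters, scalings and limma options, a fit over all 15 libraries, other call limits and leaving out each library; removal of a GC or length trend was chosen after seeing the data. Of the members' log2 differences under these, 1521 kept their direction and side of the call limits, 22 lost the call, 9 gained it and 16 changed sign; of the counts of called members, 324 stayed within 1.5 times and 18 moved. No member changed sign in SUM149 CSC or HCC1937 CSC against non-CSC, and there DSC2 in HCC1937 under TPM (each library scaled to a common sum), at -0.99, was the 1 call lost to a pseudocount, filter, scaling or left-out library. Without a size limit on the fold change, members called were 8 negative and 2 positive in the interaction (all genes: 5426 and 4627 of 16451), 10 higher in HCC1937 CSC against SUM149 CSC (7457 of 16451), and 2 and 1 higher in SUM159 against SUM149 CSC and HCC1937 CSC (4621 and 4471 of 15788). With the study's stricter limit (adjusted p of at most 1e-04) applied to the limma fits used here, 0 members were called lower in HCC1937 CSC. Of all 15582 genes, 0 were called lower there, which holds for the present fit and not for the study's own. At this limit 1 member was lower in HCC1937 non-CSC against SUM149 non-CSC (all genes: 2707 of 16451). With a pseudocount of 1, 4 members were called lower in SUM159 against SUM149 CSC (all genes: 4858 of 15788). PKP2 then lost its negative interaction (-0.62), and DSG3 its call in HCC1937 CSC against SUM149 CSC (0.68). Under TPM, 0 members were called positive in the interaction (all genes: 1812 of 16451); JUP became -0.33 and -0.87 in SUM159 against SUM149 CSC and HCC1937 CSC, and PKP3 -0.36 against the latter. Under upper quartile scaling, 3 members were called higher in HCC1937 non-CSC against SUM149 non-CSC (all genes: 2783 of 16451), 2 in SUM159 against SUM149 CSC (3816 of 15788) and 1 against HCC1937 CSC (4109 of 15788), and DSG2 in HCC1937 CSC against SUM149 CSC became -0.0645. Under quantile scaling this DSG2 value became -0.028, and JUP in SUM159 against HCC1937 CSC became -0.19. With the GC trend removed, 2 members were called lower and 2 higher in SUM159 against SUM149 CSC (all genes: 3550 and 3580 of 13744). There DSC2 became 1.24, DSC3 0.61 and PERP 0.72, while against HCC1937 CSC PERP became 0.15 and JUP -0.25. With the length trend removed, 4 were called lower and 2 higher in SUM159 against SUM149 CSC (all genes: 4375 and 4443 of 13744). There DSC2 became 0.32, DSC3 0.0978 and PERP 0.0035. Against HCC1937 CSC, 1 was then called higher (all genes: 4642 of 13744). Removal of the length trend left 1 called lower in HCC1937 non-CSC against SUM149 non-CSC (all genes: 3104 of 14242). DSP was then at 0.14 and DSG2 at 0.0298. The cause of these changes was not tested. Leaving out 1 library kept each count of members at its value except the negative interaction, 5 to 6: DSP was called without HCC1937 CSC replicate 1 (-1.07) or HCC1937 non-CSC replicate 3 (-1.01). Calls over all genes moved by more than 1.5 times with a pseudocount of 1 (SUM149: 1940 lower and 1169 higher, against 3551 and 2045; HCC1937: 467 and 159, against 935 and 422; interaction: 1672 and 1200, against 2990 and 2014; HCC1937 against SUM149: 1769 and 2517 in CSC, against 2808 and 4226, and 1938 and 2327 in non-CSC, against 3348 and 3597). They also moved with a mean of at least 1 FPKM (2182 lower in SUM149; 615 and 257 in HCC1937; 1975 negative in the interaction; 2166 lower in HCC1937 non-CSC against SUM149 non-CSC). In SUM159 against SUM149 CSC the counts of 6865 lower and 3157 higher became 4635 and 4738 under quantile scaling, 9445 and 1242 under TPM, 3550 and 3580 without the GC trend and 4375 and 4443 without the length trend. Against HCC1937 CSC the counts of 7446 and 2908 became 4855 and 4755, 9819 and 1531, 3634 and 3747, and 4505 and 4642 in the same order. In both comparisons the counts without the GC or length trend are of 13744 genes, and the others of 15788. The share of all calls that was higher moved in SUM149 from 36.5% to 51.2% (quantile), in HCC1937 from 31.1% to 42.2% (TPM) and in the interaction from 40.3% to 50.7% (quantile). In HCC1937 against SUM149 it moved from 60.1% to 49.9% (upper quartile), 49.3% (GC) and 49.4% (length) in CSC, and from 51.8% to 41.3% (upper quartile) in non-CSC. In SUM159 against SUM149 CSC it moved from 31.5% to 50.6% (quantile), 11.6% (TPM), 50.2% (GC) and 50.4% (length), and against HCC1937 CSC from 28.1% to 39.1% (upper quartile), 49.5%, 13.5%, 50.8% and 50.8%. The median of all genes moved to 0.10 in SUM149 and 0.06 in the interaction under quantile scaling, 0.09 in HCC1937 under TPM, 0.01 (CSC) and -0.12 (non-CSC) between the lines under upper quartile scaling, and -1.70 and -1.87 in the SUM159 comparisons under TPM.

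The labels number the libraries 1 to 3 in each group, but nothing says that equal numbers share a culture or day. For equal numbers the deviations from the group means correlated between -0.13 and 0.143 over 12164 genes, and 2 of 6 pairs exceeded 0.1. Both of those were in SUM149 (0.143 and 0.13). For unequal numbers the correlations were between -0.199 and 0.127. The ranges overlapped, so the numbers were not taken to pair the libraries. With the replicate block, 3545 genes were called lower and 2039 higher in SUM149 CSC and 873 and 395 in HCC1937 CSC, and the members called lower were 7 in each, with 0 higher.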
